A study of Solanum lycopersicum with 24 samples.

Results

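The 7 genes described here encode the enzymes that build the carotenes of tomato fruit, from the making of phytoene to the closing of the rings of lycopene. They were picked by gene identifier as members of this pathway, though with earlier results of these data known. They are 7 of the 34688 genes in the deposited count table. Their levels were read in 24 RNA-seq libraries of tomato fruit (Solanum lycopersicum), in 8 groups of 3 libraries each. All fruit carried the genotype MT-Aft/atv/hp2, which joins Aft (Anthocyanin fruit, a source of purple pigment), atv (atroviolacea, loss of a pigment repressor) and hp2 (high pigment 2, a weakened DET1 that heightens the answer to light). No fruit without these alleles was used here, so the values describe this genotype only. Epicarp (the skin) and mesocarp (the flesh) were sequenced separately. Control fruits grew in light for 30 d. The other fruits were kept dark under aluminium foil from flowering for 30 d, and their groups are named by the light that followed, which lasted 0 d, 2 d or 5 d. The study's stated aim concerned anthocyanin, not carotenoids. Darkness cannot be told apart from other effects of the foil, nor renewed light from the greater age of fruits at 2 d and 5 d. The labels do not say whether replicates came from separate plants, so p-values measure the spread between these libraries, which may be technical.

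In the plastid, phytoene synthase joins a pair of geranylgeranyl diphosphate molecules into colourless phytoene, and this step is widely seen as the main control point of the pathway. Desaturases and isomerases then turn phytoene into red lycopene, the pigment of the ripe tomato. At lycopene the pathway forks: beta-cyclases lead to beta-carotene, and an epsilon-cyclase together with a beta-cyclase leads to alpha-carotene and lutein. Green fruit makes mainly the carotenoids of the chloroplast, and at ripening the early steps are switched up while the cyclases are held low.

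PSY1 (Solyc03g031860.3; chromosome 3, 4234654 to 4238638, plus strand; build SL4.0, as read from the chromosome names) is the phytoene synthase of the ripening fruit, known from the yellow-flesh mutant. PDS (Solyc03g123760.3; chromosome 3, 64958968 to 64966521, plus strand) is phytoene desaturase. ZDS (Solyc01g097810.3; chromosome 1, 80774381 to 80782390, minus strand) is zeta-carotene desaturase. CRTISO (Solyc10g081650.2; chromosome 10, 61789271 to 61794607, minus strand) is the carotenoid isomerase lost in tangerine fruit. LCYB (Solyc04g040190.1; chromosome 4, 11700397 to 11701899, plus strand) is the lycopene beta-cyclase of green tissues. CYCB (Solyc06g074240.3; chromosome 6, 43562526 to 43564022, minus strand) is the beta-cyclase of chromoplasts, known from the Beta mutant. LCYE (Solyc12g008980.3; chromosome 12, 2334383 to 2339689, plus strand) is the epsilon-cyclase, known from the Delta mutant. Each interval runs over the whole gene, introns included, and none overlaps another gene.

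Total counts ran from 18402751 to 23197867 reads per library. The 6 skin markers summed to 4331 to 7265 TPM in epicarp control, 663 to 12306 TPM at 0 d, 324 to 405 TPM at 2 d and 655 to 3789 TPM at 5 d. In mesocarp they summed to 23.2 to 30.2 TPM in control, 21.9 to 816 TPM at 0 d, 14.9 to 17 TPM at 2 d and 11.4 to 24.6 TPM at 5 d. Replicate 1 was the highest 0 d library in both tissues, at 12306 and 816 TPM, and replicates 2 and 3 of epicarp stood at 686 and 663 TPM. The marker sum thus differed between and within epicarp groups, but its members did not move together. Over replicates 1, 2 and 3 of epicarp at 0 d the marker CD1 stood at 5746, 73.6 and 0.274 TPM, and GPAT6 and CYP86A69 fell likewise. CER6 stood at 968, 334 and 493 TPM and CER3 at 21.8, 18.5 and 47 TPM. CD2 stood at 132, 105 and 121 TPM, against 102, 110 and 111 TPM in control. The sum therefore does not give the amount of skin, and its part in the results below was not tested. In bulk tissue, fewer cells of a kind and less RNA per cell cannot be told apart. All 7 genes passed the filter on low counts, among 19620 genes tested. TPM (reads per length of the gene interval, scaled per library) is used for levels, and log2 fold changes, their standard errors (SE) and adjusted p come from edgeR on read counts. The edgeR folds also carry its TMM scaling of library sizes, which TPM lacks. TMM factors were 1.09 to 1.101 in mesocarp control and 0.9257 to 0.9664 in mesocarp at 5 d. Folds between these groups are therefore higher than the printed TPM would give.

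Light after darkness was followed by higher levels of PDS, ZDS, LCYB and LCYE in both tissues. In epicarp at 2 d against 0 d these 4 of 7 genes rose and none fell, where 17.6% of all tested genes rose and 19% fell. In mesocarp at 2 d against 0 d the same 4 genes rose and none fell, where 13.3% of all tested genes rose and 10.8% fell. At 5 d against 0 d the same 4 rose in epicarp (14.3% of tested genes rose) and in mesocarp (11.1% rose), and CYCB passed as lower in epicarp (14.2% of tested genes fell). That CYCB call sets 0 reads at 5 d against 8 at 0 d, for a gene kept by the low-count filter through its mesocarp reads, and no weight is put on it. The median log2 fold of the 7 genes at 2 d against 0 d was 0.88 in epicarp and 0.58 in mesocarp, beside -0.07 and -0.05 for all tested genes. The comparisons at 2 d and 5 d share their 0 d libraries. In a fit on the compared groups alone, ZDS was the only gene of the 7 called in mesocarp at 5 d against 0 d. Between 5 d and 2 d edgeR called none of the 7 in epicarp (3.27% of tested genes changed in either direction) and none in mesocarp (2.51%). At an unadjusted p under 0.05 there was 1 of 7 in epicarp (CYCB) and 0 in mesocarp, and DESeq2 and limma called 0 in both tissues.

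Against control, calls at 0 d lay in epicarp. There ZDS and LCYB fell (9.08% of tested genes fell) and CRTISO rose (10.1% rose). In mesocarp at 0 d against control edgeR called none of the 7, where 4.3% of tested genes changed; 1 gene (CYCB) had an unadjusted p under 0.05, and DESeq2 called that gene, as did limma on log2(TPM + 1). After 5 d of light against control PDS, ZDS and CRTISO rose in epicarp (8.42% of tested genes rose), and PDS, ZDS, CRTISO and LCYB rose in mesocarp (12.6% rose). The tests of the tissue difference in these effects are given with ZDS and LCYB.

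**Figure D1:**
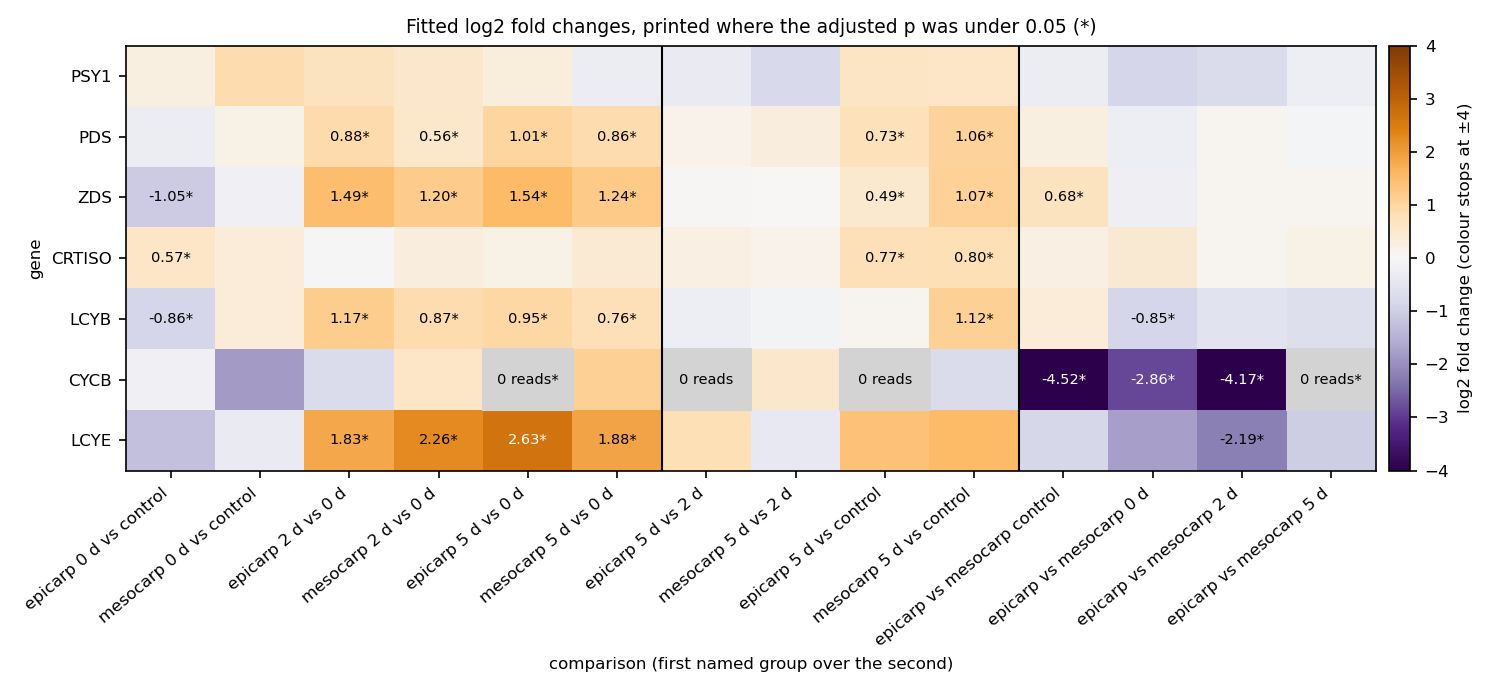
Fitted log2 fold changes of the 7 genes (rows) in the comparisons of conditions and of tissues (columns, first named group over the second), with values printed where the adjusted p was under 0.05; grey cells mark CYCB where epicarp at 5 d had 0 reads. PDS, ZDS, LCYB and LCYE are higher at 2 d and 5 d than at 0 d in both tissues, and CYCB is lower in epicarp than in mesocarp.

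PSY1, the fruit phytoene synthase, passed the threshold in none of the comparisons fitted over the 24 libraries, and its replicates at 0 d lay far apart. In epicarp it stood at 59.6, 57.4 and 57.7 TPM in control, 42, 20.3 and 164 TPM at 0 d, 104, 107 and 105 TPM at 2 d, and 82.2, 93.9 and 79.1 TPM at 5 d. In mesocarp it stood at 52.5, 93.6 and 90.4 TPM in control, 38.7, 56.5 and 301 TPM at 0 d, 166, 169 and 158 TPM at 2 d, and 87.7, 114 and 90 TPM at 5 d. Replicate 3 of 0 d stood far above replicates 1 and 2 in both tissues. The libraries at 2 d lay above all control libraries of their tissue and below that replicate. A fold of 2 d against control was not fitted, so this difference was not tested. In TPM those at 5 d lay above control in epicarp and overlapped it in mesocarp. In reads per total reads, all mesocarp libraries at 5 d lay above control.

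The log2 fold of PSY1 at 2 d against 0 d was 0.67 in epicarp (SE 0.60, adjusted p = 0.415) and 0.53 in mesocarp (SE 0.60, adjusted p = 0.574). Without replicate 3 of 0 d it was 1.87 in epicarp (adjusted p = 0.0178, in a range of 0.0178 to 0.782 over all settings) and 1.98 in mesocarp (adjusted p = 0.0097, in a range of 0.0097 to 0.932). At 0 d against control the fold was 0.27 in epicarp (adjusted p = 0.799) and 0.85 in mesocarp (adjusted p = 0.439). Its sign turned in both tissues without replicate 3 of 0 d, to -0.95 and -0.58, neither past the threshold. After 5 d of light against control PSY1 had log2 folds of 0.60 in epicarp (adjusted p = 0.545) and 0.57 in mesocarp (adjusted p = 0.544). A fit on the groups compared alone, whose spread leaves out the 0 d libraries, called the epicarp difference (0.58, adjusted p = 0.00591, in a range of 0.00591 to 0.712). Against 2 d, the 5 d libraries were lower in both tissues, with log2 folds of -0.33 in epicarp (adjusted p = 0.842) and -0.81 in mesocarp (adjusted p = 0.55). The fit on those groups alone called the mesocarp difference (adjusted p = 0.0273, in a range of 0.0273 to 0.77).

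The 0 d replicate with high PSY1 also had high ripening marks. In epicarp SGR1, a chlorophyll breakdown factor, stood at 3.73, 35.9 and 179 TPM over replicates 1, 2 and 3 of 0 d, and in mesocarp at 6.28, 64.2 and 427 TPM. NOR, a ripening regulator, stood at 0.0467, 2.85 and 197 TPM in epicarp and at 1.02, 5.86 and 36.3 TPM in mesocarp. ACS2, an ethylene synthesis enzyme, stood at 0.0455, 2.15 and 32.9 TPM in epicarp and at 0.0904, 1.23 and 28.9 TPM in mesocarp. Each of these was highest in replicate 3 of both tissues. PG2a, the pectinase of ripe fruit, stood at 302 TPM in replicate 3 of epicarp at 0 d and 6.97 TPM in that of mesocarp, and had 0 reads in both control groups. The 5 ripe fruit markers summed to 127 to 3301 TPM in epicarp at 0 d, against 19 to 39.9 TPM in control, and to 2130 to 2738 TPM in mesocarp at 0 d, against 1501 to 2853 TPM in control. E8, an ethylene-answering gene, made up most of these sums in the 0 d and control libraries. Within the 5 d groups SGR1 and PSY1 were not highest in the same replicate. SGR1 stood at 502, 207 and 114 TPM in mesocarp at 5 d, where PSY1 stood at 87.7, 114 and 90 TPM. In epicarp at 5 d SGR1 stood at 194, 133 and 62.3 TPM, and PSY1 at 82.2, 93.9 and 79.1 TPM. The part of these marks in the level of PSY1 was not tested.

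**Figure D2:**
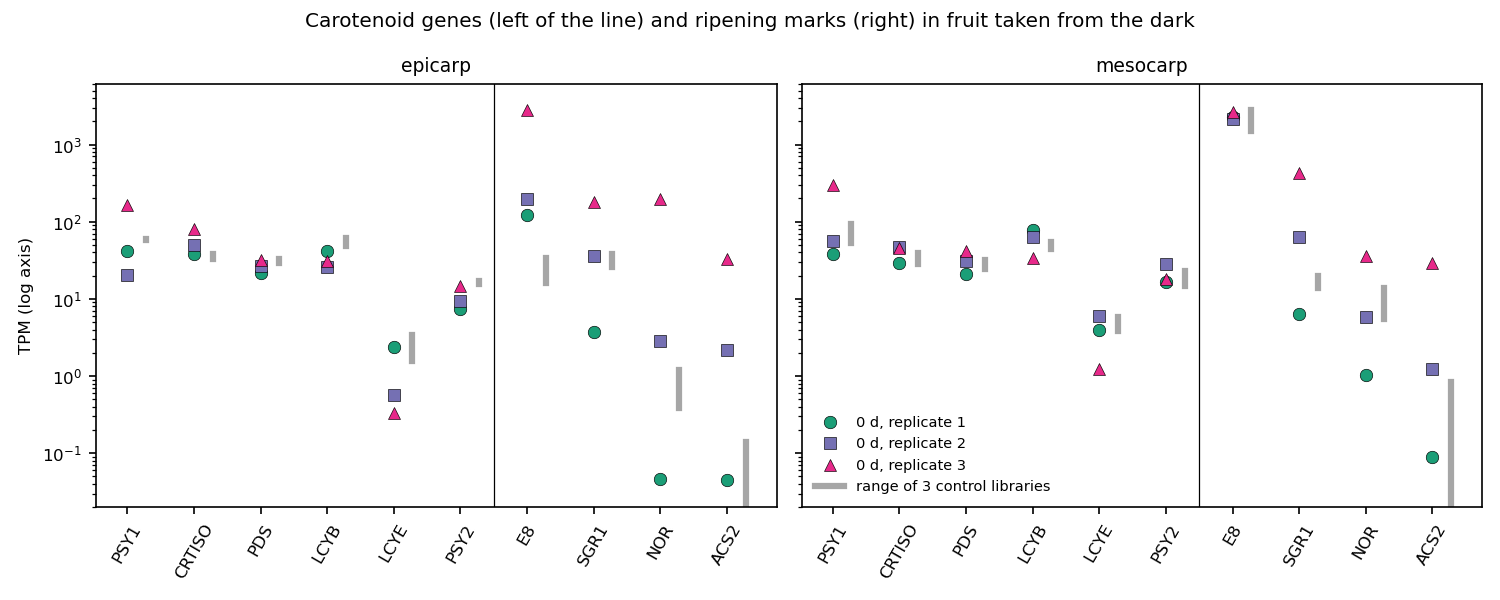
TPM on a log axis of carotenoid genes and ripening marks in the 3 libraries of 0 d in epicarp and mesocarp, with grey bars for the range of the 3 control libraries; a bar that meets the bottom edge includes a library listed at 0. PSY1 is highest in replicate 3, where SGR1, NOR and ACS2 are highest too, and LCYE is lowest there.

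PDS, which removes hydrogens from phytoene, rose with light in both tissues. In epicarp it stood at 29.4, 33.1 and 31 TPM in control, 21.8, 26.7 and 31.8 TPM at 0 d, 44.9, 42.9 and 46.6 TPM at 2 d, and 49.4, 56.6 and 43.3 TPM at 5 d. The mesocarp libraries had 24.6, 31.4 and 31.9 TPM in control, 20.7, 31.1 and 41.7 TPM at 0 d, 33.8, 42.1 and 44 TPM at 2 d, and 49.1, 54 and 49.1 TPM at 5 d. Every 5 d library exceeded every 0 d and control library of its tissue. PDS rose at 5 d against 0 d by a log2 fold of 1.01 in epicarp (SE 0.18, adjusted p = 0.000396) and 0.86 in mesocarp (SE 0.18, adjusted p = 0.00265). It rose at 2 d against 0 d by 0.88 in epicarp (SE 0.18, adjusted p = 0.001) and 0.56 in mesocarp (SE 0.18, adjusted p = 0.0305). The mesocarp libraries overlapped at 2 d, and this call was lost without replicate 1 (0.35) or 2 (0.56) of 0 d and without replicate 2 (0.49) or 3 (0.46) of 2 d. A fit on the compared groups alone lost the mesocarp calls at 2 d (0.56, adjusted p = 0.209) and at 5 d (0.85, adjusted p = 0.1). Relative to control, PDS at 5 d rose by 0.73 in epicarp (adjusted p = 0.0113) and 1.06 in mesocarp (adjusted p = 0.000451), and the epicarp call was lost without 5 d replicate 2 (0.61).

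ZDS, the next desaturase, had the smallest standard errors of the 7. In epicarp it stood at 48.9, 35.2 and 42.7 TPM in control, 24.6, 15.4 and 24.2 TPM at 0 d, 57.8, 52.7 and 53.4 TPM at 2 d, and 52.8, 61.2 and 57.7 TPM at 5 d. In the mesocarp the values were 31.6, 28.3 and 28.4 TPM in control, 23, 23.2 and 27.1 TPM at 0 d, 44.7, 50.5 and 51.6 TPM at 2 d, and 42.7, 55.8 and 57.1 TPM at 5 d. All libraries at 2 d and 5 d exceeded all 0 d and control libraries of their tissue. ZDS rose at 2 d against 0 d by a log2 fold of 1.49 in epicarp (SE 0.16, adjusted p = 1.02e-06) and 1.2 in mesocarp (SE 0.16, adjusted p = 2.01e-05). It rose at 5 d against 0 d by 1.54 in epicarp (SE 0.16, adjusted p = 1.11e-06) and 1.24 in mesocarp (SE 0.16, adjusted p = 2.46e-05). These 4 calls held without any 1 library and under every other setting tried.

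In dark epicarp ZDS fell to 21.4 ± 5.22 TPM at 0 d, against 42.3 ± 6.87 TPM in control (SD, n = 3 each; log2 fold -1.05, SE 0.16, edgeR adjusted p = 0.000192). In mesocarp it was 24.4 ± 2.3 TPM at 0 d and 29.4 ± 1.89 TPM in control, with a log2 fold of -0.17 (edgeR adjusted p = 0.585). The epicarp effect minus the mesocarp effect was -0.89 (SE 0.22, adjusted p = 0.0384). ZDS was the 1 gene of the 7 called in this interaction, where 1.82% of tested genes were lower. The call was lost without replicate 1 or 3 of epicarp control, replicate 2 of epicarp 0 d, or replicate 2 or 3 of mesocarp control, with values of -0.91 to -0.78. A fit on the compared groups alone lost it as well (-0.90, adjusted p = 0.2). Relative to control, ZDS at 5 d rose by 0.49 in epicarp (SE 0.16, adjusted p = 0.0431) and by 1.07 in mesocarp (SE 0.16, adjusted p = 0.000102). The epicarp call was lost without any 1 of the 3 libraries at 5 d and without control replicate 2 or 3, with values of 0.35 to 0.51.

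CRTISO, which turns the cis bonds of prolycopene into the all-trans form, had the narrowest span of group means. In epicarp it stood at 32.8, 37.2 and 38.1 TPM in control, 38, 50 and 80.1 TPM at 0 d, 51.1, 50.1 and 46.9 TPM at 2 d, and 62.4, 60.8 and 53.7 TPM at 5 d. Mesocarp had 27.9, 38.9 and 35.8 TPM in control, 29.6, 46.6 and 46.2 TPM at 0 d, 39.6, 41.1 and 50 TPM at 2 d, and 43.7, 52.4 and 52.4 TPM at 5 d. The highest library was epicarp 0 d replicate 3, the library high in PSY1 and the ripening marks. CRTISO rose in epicarp at 0 d against control by a log2 fold of 0.57 (SE 0.20, adjusted p = 0.048). The call was lost without any 1 of the 3 control libraries (0.50 to 0.60) or without 0 d replicate 2 (0.55) or 3 (0.26). It was also lost in a fit on the compared groups alone (0.57, adjusted p = 0.224). In mesocarp the fold was 0.37 (adjusted p = 0.289). After 5 d of light CRTISO stood above control in every library, with rises of 0.77 in epicarp (SE 0.20, adjusted p = 0.0135) and 0.80 in mesocarp (SE 0.20, adjusted p = 0.00759). The mesocarp call was lost with limma on log2(TPM + 1) (0.53) and log2(TPM + 0.1) (0.54). The epicarp call was lost without control replicate 1 (0.73) or 5 d replicate 1 (0.70). Relative to 0 d, the folds in epicarp were -0.04 at 2 d (adjusted p = 0.905) and 0.20 at 5 d (adjusted p = 0.494), and those in mesocarp were 0.30 at 2 d (adjusted p = 0.294) and 0.43 at 5 d (adjusted p = 0.14). In epicarp at 5 d CRTISO passed without replicate 3 of 0 d (0.50).

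**Figure D3:**
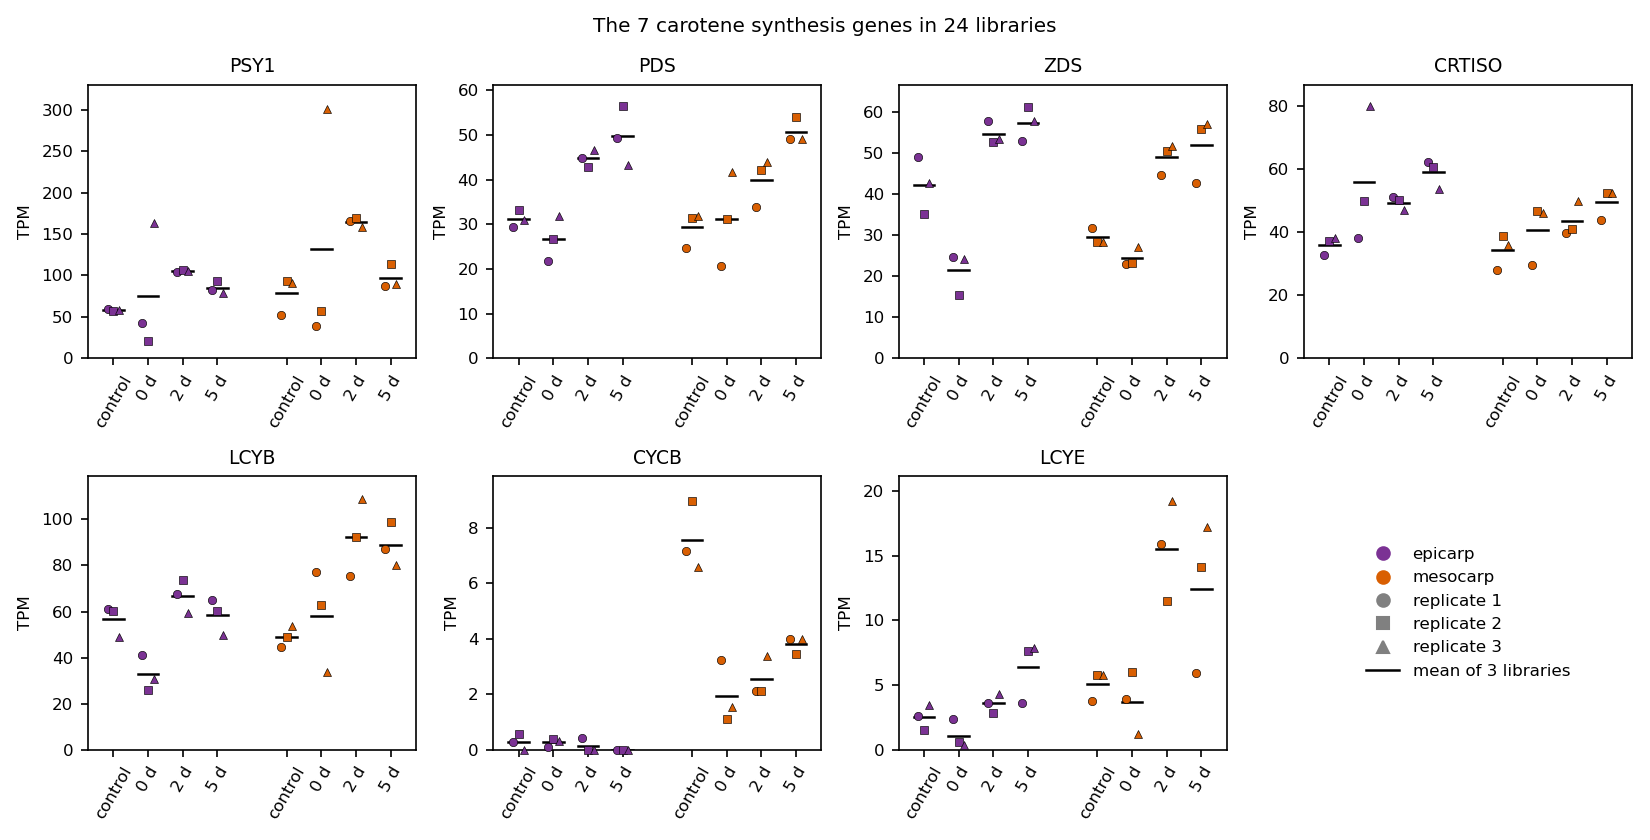
TPM of the 7 genes in each of the 24 libraries, a panel for each gene, by tissue and condition on the horizontal axis; symbols mark the replicate number and bars the mean of 3 libraries, and each vertical axis starts at 0. ZDS is lowest at 0 d in epicarp, PSY1 has 1 high library at 0 d in each tissue, and CYCB lies near 0 in epicarp.

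LCYB, the beta-cyclase of green tissue, also rose with light. Its epicarp levels were 61.2, 60.3 and 48.9 TPM in control, 41.3, 25.9 and 30.8 TPM at 0 d, 67.7, 73.8 and 59.3 TPM at 2 d, and 65, 60.1 and 50 TPM at 5 d. The levels in mesocarp were 44.7, 48.8 and 53.8 TPM in control, 77.3, 62.9 and 33.9 TPM at 0 d, 75.5, 92.5 and 109 TPM at 2 d, and 87.1, 98.9 and 80.4 TPM at 5 d. In epicarp all 3 libraries at 0 d lay below all control libraries, and in mesocarp 0 d replicate 3 lay below control and replicates 1 and 2 above. LCYB fell at 0 d against control in epicarp by a log2 fold of -0.86 (SE 0.24, adjusted p = 0.0156). The call was lost without control replicate 1 (-0.80) or 0 d replicate 2 (-0.79) or 3 (-0.80). It was also lost in a fit on the compared groups alone (-0.87, adjusted p = 0.0643). In mesocarp the fold was 0.36 (adjusted p = 0.398). The epicarp effect minus the mesocarp effect was -1.21 (SE 0.33, adjusted p = 0.0568), with adjusted p of 0.00301 to 0.263 over the other settings. It passed without epicarp 0 d replicate 1 (-1.49) or mesocarp 0 d replicate 3 (-1.55), and with same-numbered tissue pairs as a block (-1.15).

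LCYB rose at 2 d against 0 d by 1.17 in epicarp (SE 0.24, adjusted p = 0.000719) and by 0.87 in mesocarp (SE 0.23, adjusted p = 0.0104). It rose at 5 d against 0 d by 0.95 in epicarp (SE 0.24, adjusted p = 0.00474) and by 0.76 in mesocarp (SE 0.23, adjusted p = 0.0266). The mesocarp call at 2 d was lost without 2 d replicate 3 (0.69), and that at 5 d without 0 d replicate 3 (0.47) or 5 d replicate 1 (0.75) or 2 (0.65). A fit on the compared groups alone lost the mesocarp calls at 2 d (0.86, adjusted p = 0.126) and at 5 d (0.74, adjusted p = 0.216). Relative to control, LCYB at 5 d had a fold of 0.10 in epicarp (adjusted p = 0.836) and rose by 1.12 in mesocarp (SE 0.24, adjusted p = 0.00232). The epicarp fold was near 0 without control replicate 3 (-0.01) or 5 d replicate 1 (-0.02). The difference of these effects, epicarp minus mesocarp, was -1.02 (SE 0.33, adjusted p = 0.187), and a fit on the compared groups alone called it (-1.01). For this interaction edgeR called none of the 7 genes (0.973% of tested genes in either direction), with 3 at an unadjusted p under 0.05 (ZDS, LCYB and CYCB) and 0 by DESeq2 and limma. For the interaction at 2 d against 0 d it called none as well (1.24% of tested genes), with 0 at an unadjusted p under 0.05 and 0 by DESeq2 and limma.

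LCYE, which opens the branch to lutein, ranged from 0.328 to 19.2 TPM. The epicarp libraries had 2.63, 1.56 and 3.44 TPM in control, 2.4, 0.563 and 0.328 TPM at 0 d, 3.63, 2.85 and 4.33 TPM at 2 d, and 3.58, 7.66 and 7.86 TPM at 5 d. Mesocarp stood at 3.78, 5.78 and 5.77 TPM in control, 3.9, 6 and 1.22 TPM at 0 d, 15.9, 11.5 and 19.2 TPM at 2 d, and 5.96, 14.1 and 17.2 TPM at 5 d. The lowest library of each tissue was 0 d replicate 3, and replicate 1 was the lowest of the 5 d libraries in each tissue. LCYE rose at 2 d against 0 d by a log2 fold of 1.83 in epicarp (SE 0.62, adjusted p = 0.0265) and 2.26 in mesocarp (SE 0.60, adjusted p = 0.00941). It rose at 5 d against 0 d by 2.63 in epicarp (SE 0.63, adjusted p = 0.00371) and 1.88 in mesocarp (SE 0.59, adjusted p = 0.0306). The call at 2 d in epicarp was lost without 0 d replicate 2 (1.55) or 3 (1.39), or 2 d replicate 1 (1.82) or 3 (1.69), and in a fit on the compared groups alone (1.84). That at 5 d in mesocarp was lost without 0 d replicate 1 (1.93) or 3 (1.46), or 5 d replicate 2 (1.75) or 3 (1.6), and without both recovered libraries (1.58). A fit on the compared groups alone lost the calls at 5 d in mesocarp (1.87, adjusted p = 0.14) and in epicarp (2.67, adjusted p = 0.0765).

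Against control, LCYE at 0 d had folds of -1.25 in epicarp (adjusted p = 0.163) and -0.34 in mesocarp (adjusted p = 0.784). The fold in epicarp was -2.58 and passed without replicate 1 of 0 d, the library with the highest sum of skin markers. Against the same control, LCYE at 5 d had folds of 1.38 in epicarp (adjusted p = 0.123) and 1.54 in mesocarp (adjusted p = 0.0688), the second of which passed without replicate 1 of 5 d (1.86). A fit on the compared groups alone called both (1.35 in epicarp and 1.55 in mesocarp). The chloroplast markers CAB3A and RBCS1 summed to 2810 to 3260 TPM in epicarp control, 588 to 1873 TPM at 0 d, 1714 to 2474 TPM at 2 d and 3192 to 4505 TPM at 5 d. In mesocarp they summed to 789 to 1200 TPM in control, 1108 to 3710 TPM at 0 d, 2615 to 3503 TPM at 2 d and 3753 to 7428 TPM at 5 d. CAB3A made up most of these sums in every library, and the markers did not move together. In mesocarp CAB3A averaged 2310 TPM at 0 d and 666 TPM in control, while RBCS1 averaged 240 TPM and 267 TPM. The part of these markers in the folds of the cyclases was not tested.

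The ratio of the cyclases is given as a description, with no test. TPM here divides by the whole gene interval, 1503 bases for LCYB and 5307 for LCYE, so these are not ratios of transcripts. In reads, epicarp control replicate 1 had 659 for LCYB and 100 for LCYE. The same lengths hold in every library, so the ratio can be compared between groups. In epicarp the TPM of LCYB stood at 23.3, 38.7 and 14.2 times that of LCYE in control, 17.2, 45.9 and 94.1 times at 0 d, 18.7, 25.9 and 13.7 times at 2 d, and 18.2, 7.85 and 6.37 times at 5 d. In mesocarp it stood at 11.8, 8.44 and 9.33 times in control, 19.8, 10.5 and 27.7 times at 0 d, 4.76, 8.04 and 5.67 times at 2 d, and 14.6, 7.02 and 4.67 times at 5 d. The groups at 0 d overlapped each of the other groups of their tissue except mesocarp at 2 d.

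CYCB, the chromoplast cyclase, was near the limit of detection in epicarp and low in mesocarp. Over the 3 libraries of a group, epicarp gave 10 reads in control, 8 at 0 d, 5 at 2 d and 0 at 5 d, and 6 epicarp libraries had 0 reads. Mesocarp gave 237 reads in control, 68 at 0 d, 85 at 2 d and 135 at 5 d. In TPM the mesocarp libraries stood at 7.17, 8.96 and 6.61 in control, 3.23, 1.1 and 1.53 at 0 d, 2.13, 2.12 and 3.4 at 2 d, and 4.01, 3.47 and 4 at 5 d. All control libraries of the mesocarp exceeded all its other libraries, and no mesocarp library was as low as the highest of epicarp, 0.578 TPM. At 0 d against control the mesocarp fold was -1.84 (SE 0.84, edgeR adjusted p = 0.219), with adjusted p = 0.0302 in DESeq2 and 0.000509 in limma on log2(TPM + 1), in a range of 0.000509 to 0.4 over all settings. The mesocarp fold was -0.72 at 5 d against control (adjusted p = 0.575) and 1.11 at 5 d against 0 d (adjusted p = 0.39), and limma on log2(TPM + 1) called both.

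In epicarp CYCB had 0 reads at 5 d and 8 at 0 d, and edgeR called it lower at 5 d (adjusted p = 0.0437). Taking 3 reads over the group in place of 0, its level was 2.81-fold lower. That figure takes the 8 reads as exact, so it is not a lower bound. The call rests on 8 reads of a gene kept by the low-count filter through mesocarp, and in a fit on the compared epicarp groups alone CYCB did not pass that filter. It was lost without the filter (adjusted p = 0.0548), with limma on log2(TPM + 1) (-0.33, adjusted p = 0.32), under the replicate block, without any 1 of the 3 libraries at 5 d and without 0 d replicate 2 or 3, in a range of adjusted p of 0.0215 to 0.32. The seed marker, an 11S globulin, stood at 60.9 to 89.1 TPM in the control mesocarp, the group highest in CYCB. It was at 0 in mesocarp at 0 d, 0.0643 to 1.95 TPM at 2 d and 0 to 17.9 TPM at 5 d, and from 0 to 5.18 TPM in epicarp. Its part in the level of CYCB was not tested.

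Between tissues, CYCB was lower in epicarp than in mesocarp in every condition, as a gene that met the low-count filter through mesocarp. The epicarp level in reads per total reads was 0.0402 times the mesocarp level in control (adjusted p = 0.00242), 0.131 times at 0 d (adjusted p = 0.046) and 0.0557 times at 2 d (adjusted p = 0.00823). At 5 d no read was found in epicarp (adjusted p = 0.000579). With 3 reads taken over the group, the epicarp level was 43.8-fold lower. ZDS was the only 1 of the 7 higher in epicarp, in control fruit (log2 fold 0.68, SE 0.16, adjusted p = 0.00358). In control fruit 13.6% of all tested genes were lower in epicarp and 13.2% were higher. At 0 d CYCB and LCYB were lower in epicarp (9.57% of tested genes were lower), LCYB by -0.85 (SE 0.24, adjusted p = 0.0173). At 2 d CYCB and LCYE were lower (10.3% of tested genes were lower), LCYE by -2.19 (SE 0.60, adjusted p = 0.0147). At 5 d CYCB alone was lower (10.4% of tested genes were lower).

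The tissue calls at 0 d depended on single libraries: CYCB was lost without any 1 epicarp library (-3.34 to -2.49) or without mesocarp replicate 1 (-2.3), and LCYB without epicarp replicate 2 (-0.79) or mesocarp replicate 1 (-0.59). A fit on the compared groups alone lost CYCB (-2.89, adjusted p = 0.211) and LCYB (-0.88, adjusted p = 0.307) at 0 d. The LCYE call at 2 d was lost without epicarp replicate 1 (-2.21) or 2 (-2.07) or mesocarp replicate 3 (-2). Same-numbered epicarp and mesocarp libraries varied together in covered fruit, though at 2 d no more than in control. With these pairs as a block 4 genes passed at 0 d, namely LCYB, LCYE (-1.9), PSY1 (-0.76) and CRTISO (0.41), and CYCB did not (-2.75). The fold of PSY1 at 0 d was -0.85 without the block (adjusted p = 0.346), and it turned to 0.56 without mesocarp replicate 3 and stood at -2.06 without epicarp replicate 3. LCYE at 0 d had a fold of -1.76 without the block (adjusted p = 0.0538), and CRTISO one of 0.44 (adjusted p = 0.129). At 2 d the block added PSY1 (-0.72), whose 3 epicarp libraries lay below the 3 mesocarp libraries. At 5 d it added LCYB (-0.66), which had an adjusted p of 0.0594 without it.

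The order of the group means differed by gene. PSY1 was highest in mesocarp at 2 d (164 ± 6.06 TPM) and lowest in epicarp control (58.3 ± 1.19 TPM; SD, n = 3 each), and each group in its order overlapped the next. PDS was highest in mesocarp at 5 d (50.7 ± 2.83 TPM) and lowest in epicarp at 0 d (26.8 ± 4.96 TPM). The 4 re-lit groups held the top places for PDS and for ZDS. ZDS was highest in epicarp at 5 d (57.3 ± 4.21 TPM) and lowest in epicarp at 0 d (21.4 ± 5.22 TPM), and mesocarp control lay apart from its neighbours above and below. LCYB was highest in mesocarp at 2 d (92.3 ± 16.8 TPM) and lowest in epicarp at 0 d (32.7 ± 7.89 TPM). LCYE had the same extremes (15.5 ± 3.87 and 1.1 ± 1.13 TPM). The highest group mean was 1.73 times the lowest for CRTISO, 1.9 for PDS, 2.68 for ZDS, 2.82 for PSY1, 2.83 for LCYB and 14.2 for LCYE. Per interval length PSY1 and LCYB had the highest levels, with medians of 90.2 and 60.7 TPM over the 24 libraries, and LCYE and CYCB the lowest, with 4.11 and 0.84 TPM. Genes with long introns are understated on this scale.

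PSY2 (Solyc02g081330.4), the phytoene synthase of green tissues, rose at 2 d against 0 d. In that comparison PSY1 did not pass with replicate 3 of 0 d included. In epicarp it stood at 15.7, 16.3 and 17 TPM in control, 7.38, 9.27 and 14.6 TPM at 0 d, 66.8, 66.8 and 68.3 TPM at 2 d, and 37.3, 38.3 and 25.3 TPM at 5 d. PSY2 rose at 2 d against 0 d by a log2 fold of 2.83 in epicarp (SE 0.24, adjusted p = 5.09e-08) and 2.17 in mesocarp (SE 0.23, adjusted p = 1.49e-06). It was lower at 5 d than at 2 d, by -1.02 in epicarp (adjusted p = 0.0154) and -1.06 in mesocarp (adjusted p = 0.0138). PSY1 made up 79.2%, 77.9% and 77.3% of the summed TPM of both synthases in epicarp control, 85.1%, 68.6% and 91.8% at 0 d, 61%, 61.7% and 60.7% at 2 d, and 68.8%, 71% and 75.8% at 5 d. In mesocarp the share was 78%, 80.3% and 84.3% in control, 70.2%, 66.7% and 94.4% at 0 d, 63.8%, 71.8% and 65.4% at 2 d, and 69.8%, 73.6% and 68.1% at 5 d. The shares at 2 d lay below those at 0 d in every epicarp library and overlapped them in mesocarp.

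Among 6 tested genes of the same steps, 4 rose and 1 fell at 2 d against 0 d in epicarp, and 3 rose and 1 fell in mesocarp. Of all tested genes 17.6% rose and 19% fell in epicarp, and 13.3% rose and 10.8% fell in mesocarp. The median log2 fold of the 6 genes was 1.37 in epicarp and 0.50 in mesocarp, beside -0.07 and -0.05 for all tested genes. CRTISO-like (Solyc05g010180.4) rose by 2.79 in epicarp (adjusted p = 2.36e-06) and 3.06 in mesocarp (adjusted p = 1.47e-06). OR, a chaperone of phytoene synthase, rose by 0.94 in epicarp (adjusted p = 6.98e-05). The gene that fell was Z-ISO (Solyc12g098710.2), the isomerase between PDS and ZDS. It stood at 30.7, 30.5 and 29.1 TPM at 2 d in epicarp, against 54.8, 53.3 and 52.6 TPM at 0 d (log2 fold -0.70, SE 0.19, adjusted p = 0.0064). In mesocarp its fold was -0.53 (adjusted p = 0.0438). Dark epicarp had more Z-ISO than control (0.64, adjusted p = 0.021), while PSY2, CRTISO-like and the plastid oxidase PTOX fell.

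**Figure D4:**
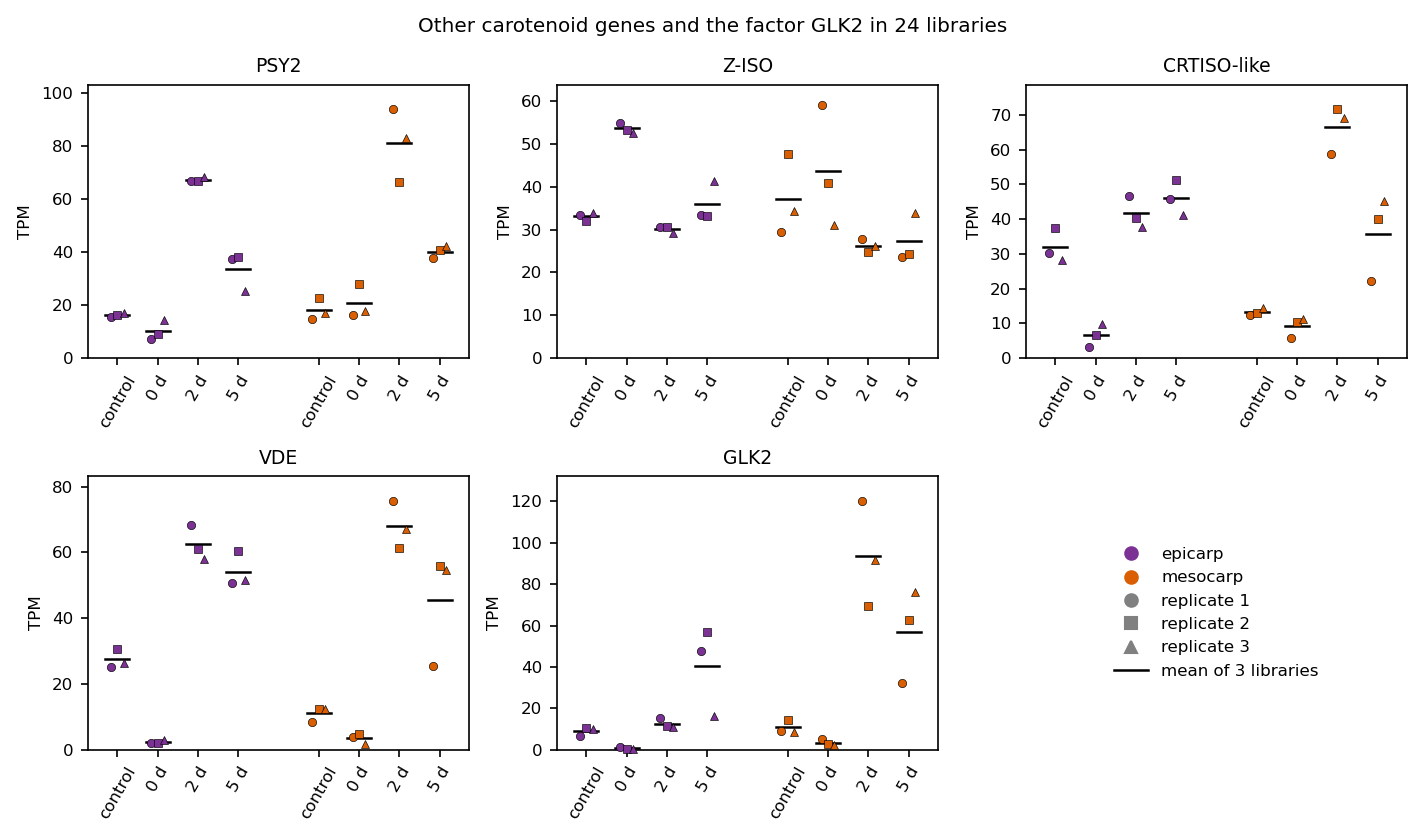
TPM in each of the 24 libraries for PSY2, Z-ISO, CRTISO-like, VDE (the violaxanthin de-epoxidase) and the chloroplast factor GLK2, drawn as for the 7 genes. PSY2 peaks at 2 d in both tissues, and VDE and GLK2 are low at 0 d and high after light.

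The enzymes that supply geranylgeranyl diphosphate rose with light as well. Of 10 tested, 6 rose in epicarp and 5 in mesocarp at 2 d against 0 d, and 10 and 8 at 5 d against 0 d, with none lower. Of all tested genes 17.6% and 13.3% rose at 2 d, and 14.3% and 11.1% at 5 d, in epicarp and mesocarp in that order. Their median log2 fold at 5 d against 0 d was 1.02 in epicarp and 1.00 in mesocarp, against -0.09 and -0.02 for all tested genes. In epicarp at 2 d the prenyl synthases GGPPS2 (2.08, adjusted p = 0.00158) and GGPPS3 (1.58, adjusted p = 1.68e-06) rose, and DXR, an early enzyme of the plastid isoprenoid route, rose by 1.37 (adjusted p = 1.98e-05). In dark epicarp 6 of 10 fell against control (9.08% of all tested genes), among them GGPPS2 (-1.4, adjusted p = 0.0362). In dark mesocarp DXS1, the entry enzyme, rose (0.93, adjusted p = 0.0187), where 2.4% of all tested genes rose, and none fell. At 5 d 4 of 10 exceeded control in epicarp (8.42% of all tested genes) and 9 of 10 in mesocarp (12.6%).

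Downstream, 10 genes of xanthophyll synthesis and carotenoid cleavage were tested. At 2 d against 0 d 5 rose in epicarp and 4 in mesocarp, with none lower, where 17.6% and 13.3% of all tested genes rose. Their median log2 fold was 0.55 in epicarp and 0.78 in mesocarp, beside -0.07 and -0.05 for all tested genes. VDE, which returns violaxanthin to zeaxanthin, stood at 68.3, 61.1 and 57.9 TPM at 2 d in epicarp, against 2.13, 1.92 and 2.84 TPM at 0 d (log2 fold 4.9, SE 0.33, adjusted p = 3.53e-09). CYP97C11, the epsilon-ring hydroxylase that follows LCYE on the way to lutein, rose by 2.02 in epicarp (adjusted p = 2.73e-05) and 2.03 in mesocarp (adjusted p = 4.56e-05). ZEP, which makes violaxanthin, rose by 1.27 in epicarp (adjusted p = 3.76e-05) and 1.26 in mesocarp (adjusted p = 7.3e-05). BCH1, a beta-ring hydroxylase, was lower than control in epicarp at 0 d (-1.04, adjusted p = 0.019) and at 5 d (-1.36, adjusted p = 0.00518).

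Of 13 factors linked to fruit ripening, light or plastids, 2 rose and 5 fell at 2 d against 0 d in epicarp, and 1 rose and 3 fell in mesocarp. Of all tested genes 17.6% rose and 19% fell in epicarp, and 13.3% rose and 10.8% fell in mesocarp, so the number of factors that rose was near the background. GLK2, a driver of chloroplast development, stood at 15.5, 11.3 and 11.2 TPM at 2 d in epicarp, against 1.31, 0.481 and 0.267 TPM at 0 d (log2 fold 4.3, SE 0.55, adjusted p = 8.79e-06), and in mesocarp it rose by 4.98 (SE 0.53, adjusted p = 1.99e-06). The ripening factors AP2a (-2.3, adjusted p = 0.000286) and FUL2 (-1.39, adjusted p = 3.42e-07) fell in epicarp. HY5, a light-signal factor, also fell there (-2.48, adjusted p = 0.00645). It stood at 15.9, 12.6 and 9.42 TPM at 2 d, against 11.3, 74.2 and 150 TPM at 0 d, so that replicate 1 of 0 d did not share the difference. Against control, epicarp at 0 d was higher in AP2a (1.76, adjusted p = 0.00571) and lower in GLK2 (-3.75, adjusted p = 0.000146), with no overlap of libraries. NOR (6.3, adjusted p = 0.0236) and HY5 (2.06, adjusted p = 0.0323) also passed as higher, but replicate 1 of 0 d lay below every control library in both. NOR stood at 0.0467, 2.85 and 197 TPM at 0 d, against 1.2, 0.384 and 0.72 TPM in control, and HY5 at 11.3, 74.2 and 150 TPM at 0 d, against 16.5, 23.4 and 13.9 TPM in control.

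The genes whose log2 counts tracked each of the 7 best over the 24 libraries are given as a description, since these libraries share their conditions and scaling. For PSY1 the highest Pearson correlation was 0.871, with an adenine nucleotide alpha hydrolase-like gene (Solyc01g100370.3), the lowest best match among the 7. PDS had 0.971 with a ribosome biogenesis GTPase A gene (Solyc06g084270.3), and ZDS had 0.971 with a protein kinase domain gene (Solyc09g091580.3). LCYB had 0.929 with a thylakoid lumenal protein (Solyc11g071710.2), and CRTISO had 0.921 with Solyc07g017490.3. CYCB had 0.951 with an alpha/beta-hydrolase (Solyc12g042890.2), and LCYE had 0.935 with a DUF3119 domain gene (Solyc04g081330.5). Among the 7 themselves the correlation was 0.827 for PDS and ZDS, 0.817 for LCYB and LCYE, and 0.736 for ZDS and LCYB. With GLK2 it was 0.889 for LCYE, 0.84 for LCYB, 0.819 for ZDS and 0.689 for PDS. For PSY1, CYCB and CRTISO the correlation with GLK2 was 0.451, 0.243 and 0.174. With SGR1 it was 0.842 for PDS, 0.753 for PSY1, 0.715 for CRTISO and 0.562 for ZDS. For LCYB, LCYE and CYCB the correlation with SGR1 was 0.419, 0.248 and -0.016.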

How the data were processed

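Total RNA of 24 samples was sequenced in pairs, and reads were trimmed with Trimmomatic 0.39 and counted with featureCounts, per the submitters' processing notes; no source used here gives the aligner or the strand setting. Read counts per gene and TPM were deposited by the authors. TPM lengths equal the whole gene interval. The count table has 2 columns of the same name, which were not used; counts of those libraries, mesocarp 2 d replicate 3 and mesocarp 5 d replicate 3, were recovered from the deposited TPM as whole reads (100% whole within 0.01). The same step gave the deposited counts for all 34688 genes in the other 22 libraries.

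Counts were fitted with edgeR 4.0.16 (R 4.3.3; TMM, low-count filter, quasi-likelihood with 8 group means over all 24 libraries, Benjamini-Hochberg adjusted p under 0.05). Alternatives were DESeq2 1.42.0, limma 3.58.1 on log2(TPM + 1) and log2(TPM + 0.1), no filter, blocks, the compared groups alone, and single libraries left out. Scripts were tested on simulated data. All 7 genes are named, with other genes of their pathway from lists; genes and lists were chosen with earlier results of these data known. Of 60 listed identifiers 4 were not matched and 4 did not pass the filter. The labels do not say whether same-numbered epicarp and mesocarp libraries share fruit. Their deviations from the group means were taken to go together where every correlation passed 0.1. The correlations spanned 0.385 to 0.644 for 0 d, 0.124 to 0.171 for 2 d and 0.194 to 0.305 for 5 d, which met this rule. Control (0.045 to 0.212) and pairs across conditions did not meet it. The 2 d range lies within that of control, so pairing at 2 d is uncertain. Folds given for 0 reads cover the counting error of the 0 only, not that of the other group or the spread between libraries.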

Additional observations from a re-analysis of the deposited data

Results flagged for a closer look

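ZDS drew attention because its change at 0 d against control differed between the tissues: the epicarp effect minus the mesocarp effect was -0.89 on the log2 scale (edgeR interaction, adjusted p = 0.0384). ZDS averaged 21.4 TPM at 0 d and 42.3 TPM in control in epicarp, and 24.4 TPM at 0 d and 29.4 TPM in control in mesocarp.

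CYCB drew attention because every epicarp library at 5 d lay below every epicarp library at 0 d (fitted log2 fold -4.56), and every mesocarp library at 5 d lay above every mesocarp library at 0 d (fitted log2 fold 1.11). The difference between the tissues was not tested. Epicarp had 0 reads at 5 d and 8 at 0 d, with 1, 4 and 3 over replicates 1, 2 and 3. The separation in epicarp thus rests on 1 read in replicate 1, and no weight is put on it. The fitted epicarp fold is no bound, and the gene met the low-count filter through mesocarp. With 3 reads in place of 0 the level was 2.81-fold lower, a figure that leaves out the counting error of the 8 reads.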

How the results depend on the processing

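Of 35 called folds among the 7 genes, none changed sign in 448 refits, and 363 of those refits kept the call. These folds were picked by their adjusted p, and the refits share most libraries with the first fit, so the kept sign is no independent support. Refits of the folds not called gave 53 sign changes, of which 0 passed the threshold. Among called counts of the 7 genes, a fit on the groups compared alone gave 1 (epicarp 0 d against control), 3 (epicarp 2 d against 0 d, LCYE lost), 3 (epicarp 5 d against 0 d), 5 (epicarp 5 d against control), 2 (mesocarp 2 d against 0 d), 1 (mesocarp 5 d against 0 d), 1 (mesocarp 5 d against 2 d), 0, 4 and 2 (tissues at 0 d, 2 d and 5 d), 0 (tissue interaction at 0 d) and 1 (tissue interaction at 5 d). DESeq2 gave 1 for mesocarp 0 d against control, 2 for tissues at 5 d and 2 for the interaction at 0 d; limma gave 1 with TPM + 1 for mesocarp 0 d against control and 0 with TPM + 0.1 for the interaction. Without the 2 recovered libraries the counts were 2 for mesocarp 2 d against 0 d, 3 for mesocarp 5 d against 0 d (LCYE lost) and 1 for tissues at 2 d. Limma lost CRTISO at 0 d against control in epicarp and at 5 d against control in mesocarp, ZDS at 5 d against control in epicarp, PDS at 2 d against 0 d in mesocarp and the ZDS interaction under both pseudocounts. Without the filter CRTISO at 0 d and ZDS at 5 d against control in epicarp were lost, and 1 gene passed between tissues at 0 d.

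With the replicate block over all groups the counts were 1 for tissues at 0 d and 2 at 5 d. With same-numbered tissue pairs as the block, chosen after seeing the data, they were 4 at 0 d, 2 at 5 d and 2 for the interaction at 0 d. PSY1 at 5 d against 0 d in mesocarp turned to 0.02 with the replicate block. Conditions within a tissue showed no pairing by number (correlations down to -0.494).

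Leaving out single libraries gave 1 to 4 called for epicarp 0 d against control, 1 to 3 for epicarp 5 d against control, 2 to 5 and 2 to 4 for mesocarp 2 d and 5 d against 0 d, 0 to 3 and 1 to 2 for tissues at 0 d and 2 d, and 0 to 2 for the interaction at 0 d. Uncalled folds that turned sign spanned -0.95 to 0.65 for PSY1 at 0 d against control in epicarp, -0.58 to 1.3 in mesocarp, -0.07 to 1.55 at 5 d against 0 d in epicarp, -0.71 to 1.17 in mesocarp and -2.06 to 0.56 between tissues at 0 d. They spanned -0.22 to 0.26 for CRTISO at 2 d against 0 d in epicarp, -0.02 to 0.19 for LCYB at 5 d against control in epicarp, and -0.84 to 0.10 for LCYE at 0 d against control in mesocarp. With limma PSY1 turned to -0.15 (TPM + 1) and -0.17 (TPM + 0.1) at 0 d against control in epicarp, and to 0.14 and 0.15 at 5 d against 0 d in mesocarp. Where a call changed, the cause was not tested. Depth limits CYCB in epicarp, where 3 reads in a library equal 0.137 to 0.163 CPM.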
